A study of Homo sapiens with 12 samples.

Results

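The genes described here were 57 members of TGF-β, BMP and fibrosis signalling, chosen by gene symbol from the 58278 genes listed for HK2 cells. HK2 is an immortalized tubular epithelial cell (TEC) line of the human proximal tubule. RNA was sequenced in 12 libraries, 2 for each of 6 groups. Ctrl cells received no treatment, and TN cells received 5 ng/mL TNF-α during 3 h. The remaining 4 groups combined that TNF-α exposure with 24 h of a short-chain fatty acid (SCFA), either 15 mM propionate or 3 mM butyrate. In PRTN (propionate) and BUTN (butyrate) the SCFA preceded TNF-α, and in TNPR and TNBU it followed. Whether the SCFA was still in the medium during the TNF-α hours, or TNF-α during the later SCFA hours, is not given in the sources used here. Ctrl was the only group without TNF-α, and no group had an SCFA without TNF-α. The doses of propionate and butyrate differed, so compound and dose cannot be told apart, and the groups treated before and after TNF-α also differed in the time since TNF-α. No group with TNF-α alone and a further 24 h of culture is described. In TNPR and TNBU against TN, the SCFA and the time since TNF-α therefore cannot be told apart. All libraries came from 1 established cell line. The p-values and standard errors rest on 1 estimate of spread per gene, shared by the 6 groups of 2 libraries.

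Ligands of the TGF-β superfamily bind paired type I and type II receptor kinases at the cell surface. TGF-β and activins then act through SMAD2 and SMAD3, BMPs through SMAD1, SMAD5 and SMAD9, and both arms share SMAD4, while SMAD6 and SMAD7 block the receptors. Latent TGF-β is stored in the matrix by LTBP proteins, and follistatins, chordin, noggin and gremlin trap activins or BMPs outside the cell. In the kidney TGF-β is known for driving fibrosis, and BMP7 for opposing it.

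Depth was similar across the study, from 27269986 to 33851130 expected counts per library, and levels are given below as CPM scaled with TMM factors. Replicates lay further apart in TNPR and TNBU than elsewhere, with a median absolute log2 difference between the 2 libraries of 0.140 and 0.158 against 0.0828 to 0.104 in the other groups. Because the spread is shared by all groups, the standard errors below do not show this difference and can be too small for TNPR and TNBU. Of 14 markers of kidney epithelium, 8 reached 1 CPM in Ctrl. MME and LRP2, known from the proximal tubule brush border, were the only ones at 0 in both Ctrl libraries. A gene is called below where limma-voom, fitted over 24342 genes, gave both an adjusted p under 0.05 and a change of more than 1.5-fold. Of the 57 members 55 were tested, and BMP7 and ID4 were too low. In bulk RNA fewer cells of a type and less RNA per cell cannot be told apart.

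TNF-α alone changed few of these genes. The activin A subunit INHBA rose 2.09-fold in TN, whereas BMP4 fell to 0.459 of its Ctrl level and ID1, a BMP target, to 0.628 of it. Those were the calls among 55 tested members, 1 up and 2 down, where 1.3% of all tested genes were called (0.764% up, 0.534% down). The median log2 fold change was -0.01 over the members and -0.01 over all genes tested.

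INHBA, at chr7:41667168-41705834 on the minus strand (GRCh38, GENCODE release 44), was measured at 346 and 404 CPM (Ctrl), 798 and 769 (TN), 687 and 686 (PRTN), 736 and 734 (BUTN), 686 and 788 (TNPR), and 762 and 742 (TNBU). Both Ctrl libraries lay below the other 10, and the TN libraries overlapped those with an SCFA. The change (log2) was 1.07 ± 0.08 (SE, adjusted p = 1.12e-05) in TN against Ctrl, and against TN the change was -0.19 ± 0.07 (PRTN), -0.09 ± 0.07 (BUTN), -0.09 ± 0.07 (TNPR) and -0.06 ± 0.07 (TNBU), none of them called. INHBA was also called up against Ctrl in each SCFA group, at 0.88 ± 0.08 (PRTN), 0.97 ± 0.08 (BUTN), 0.97 ± 0.08 (TNPR) and 1.01 ± 0.08 (TNBU).

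ID1, which encodes an inhibitor of helix-loop-helix factors, was measured at 52.3 and 48.8 CPM (Ctrl), 29.1 and 34.5 (TN), 22.3 and 27.01 (PRTN), 22.1 and 25.9 (BUTN), 25.2 and 18.5 (TNPR), and 24.0 and 22.7 (TNBU). The TN libraries were below the Ctrl libraries, and each of the 8 SCFA libraries was below both. The change (log2) was -0.67 ± 0.13 (SE, adjusted p = 0.0163) in TN, and this call was lost when Ctrl replicate 1 (-0.62), Ctrl replicate 2 (-0.72) or TN replicate 1 (-0.55) was left out and when Ctrl and TN were fitted alone (-0.65). With an SCFA the change from TN was -0.37 ± 0.14 (PRTN), -0.41 ± 0.14 (BUTN), -0.55 ± 0.14 (TNPR) and -0.44 ± 0.14 (TNBU), with no call, although one appeared in TNPR without TN replicate 1 (-0.70) or TNPR replicate 1 (-0.82). The change from Ctrl was -1.04, -1.08, -1.22 and -1.11, each called down. SMAD3, the activin and TGF-β effector, stood just below the fold threshold in TN, at 0.57 ± 0.06 (adjusted p = 0.000281), with 133 and 124 CPM in Ctrl and 192 and 189 CPM in TN. ID3 was lower by a log2 fold change of -0.47 ± 0.09 in TN (adjusted p = 0.0121), also short of the fold threshold.

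With an SCFA many members moved in both directions. Relative to TN, PRTN had 18 members called up and 16 down, BUTN 17 up and 14 down, TNPR 17 up and 16 down, and TNBU likewise 17 up and 16 down, of 55 tested. Over all tested genes the shares called were 40.6%, 37.9%, 41.8% and 41.6%, against 61.8%, 56.4%, 60% and 60% of the members, and the difference between these shares was not tested. By direction, 23.9%, 23.1%, 24.9% and 25% of all genes rose and 16.7%, 14.8%, 16.9% and 16.5% fell. With a filter that removed every gene at 0 in any library, 22.4%, 21.6%, 23.1% and 23.2% rose and 20.3%, 17.6%, 21.1% and 20% fell. Scaling by library size alone moved the median of all genes by 0.16, 0.15, 0.17 and 0.20 on the log2 scale and gave 27.9%, 27%, 29.7% and 30.1% up with 12.9%, 10.9%, 12.9% and 11.7% down. The median member changed by -0.17, -0.06, -0.22 and -0.09, beside 0.09, 0.08, 0.12 and 0.09 for all genes. These 4 comparisons share the same 2 TN libraries and are therefore not independent of each other.

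Seen by library, 20 members were higher in all 8 SCFA libraries than in the 4 libraries of Ctrl and TN, 36.4% of those tested, where 27.6% of all genes were. In the other direction 23 members were lower in all 8, 41.8% of those tested, where 23.4% of all genes were. For the remaining tested members the libraries overlapped. INHBB, FST and CHRD, among the 20 that were higher, passed the filter only through their SCFA libraries.

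**Figure D1:**
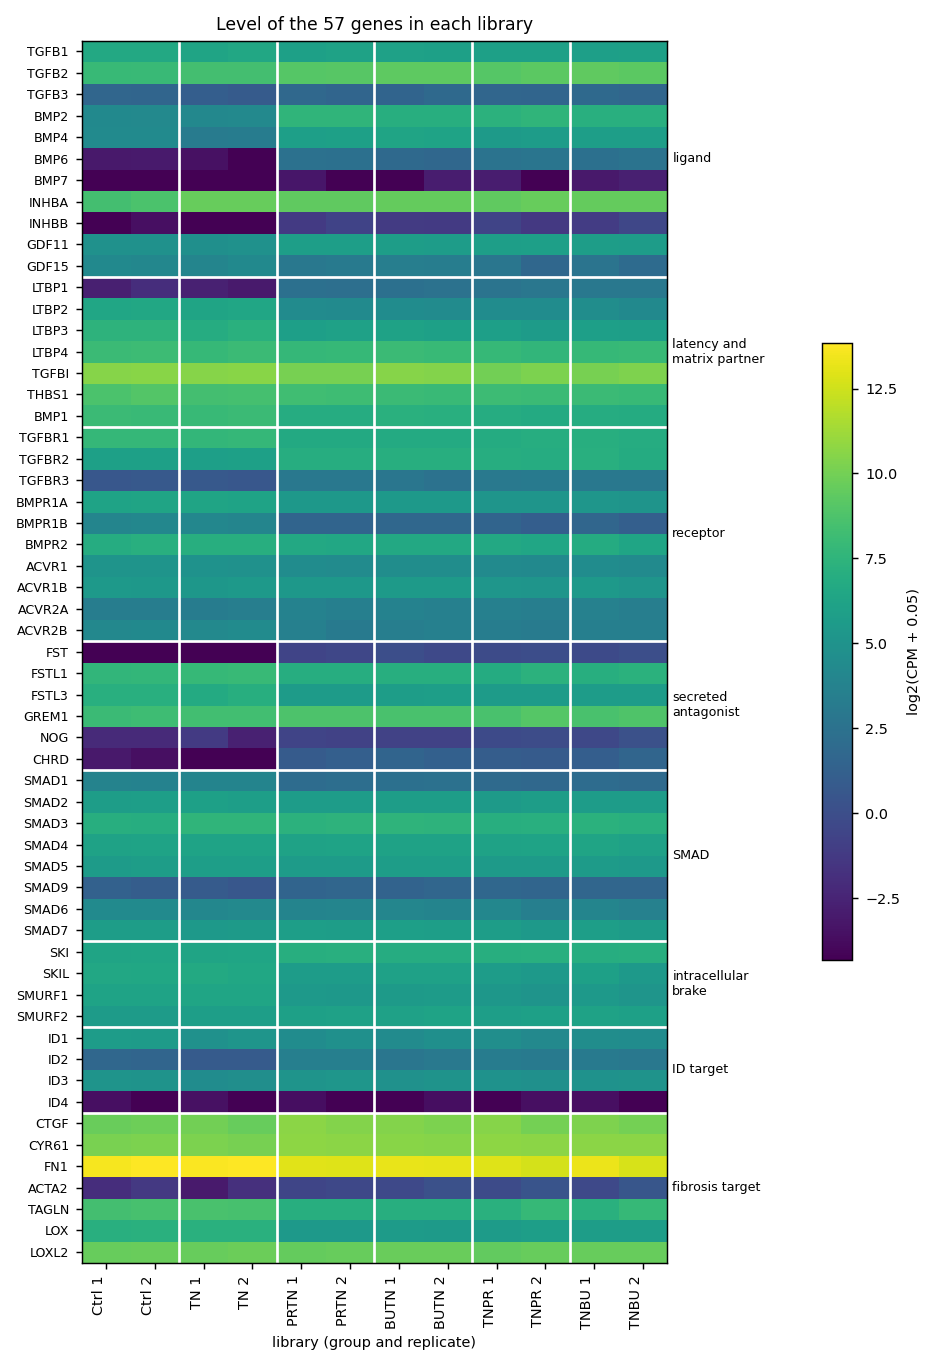
Level of each of the 57 members (rows, grouped by role) in each of the 12 libraries (columns), as log2(CPM + 0.05) on a colour scale, with white lines between groups and roles. The BMP6, LTBP1, FST and CHRD rows are dark in the 4 Ctrl and TN libraries and lighter in the 8 SCFA libraries, while the INHBA row is lighter in the 10 libraries with TNF-α than in Ctrl.

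The 250 bases before the start of the gene are shown for the 2 largest rises and the 2 largest falls among the members described in every library, where that window was analysed and lies outside the annotated gene. LTBP2, SMAD1, LOX, GDF15 and TAGLN had larger mean falls from TN than FSTL3. Their windows overlapped the annotated gene, except for TAGLN, whose window was not analysed. The bases shown come from RefSeq, build GRCh38.p14, and are written 5′ to 3′ on the strand of the gene. BMP6 is at chr6:7725849-7726098 (plus), CHRD at chr3:184379804-184380053 (plus), BMPR1B at chr4:94757705-94757954 (plus) and FSTL3 at chr19:676142-676391 (plus). Capitals mark the GC box GGGCGG on either strand and the palindrome GGCGCC, a GC-rich site known to be bound by SMADs of the BMP arm.
BMP6: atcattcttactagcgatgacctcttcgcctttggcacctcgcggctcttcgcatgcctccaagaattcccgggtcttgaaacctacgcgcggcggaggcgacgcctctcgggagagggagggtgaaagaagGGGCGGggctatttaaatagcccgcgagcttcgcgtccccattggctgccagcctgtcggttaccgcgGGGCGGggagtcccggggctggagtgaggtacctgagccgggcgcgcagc
CHRD: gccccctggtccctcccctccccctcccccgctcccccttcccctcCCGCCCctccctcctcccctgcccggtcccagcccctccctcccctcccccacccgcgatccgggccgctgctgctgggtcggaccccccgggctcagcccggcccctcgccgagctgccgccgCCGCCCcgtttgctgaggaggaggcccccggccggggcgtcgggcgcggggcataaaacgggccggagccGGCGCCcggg
BMPR1B: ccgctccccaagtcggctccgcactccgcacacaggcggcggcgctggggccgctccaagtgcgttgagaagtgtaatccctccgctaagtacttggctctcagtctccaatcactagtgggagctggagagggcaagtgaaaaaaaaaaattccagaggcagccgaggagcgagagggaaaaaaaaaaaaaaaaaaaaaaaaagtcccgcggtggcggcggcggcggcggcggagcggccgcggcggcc
FSTL3: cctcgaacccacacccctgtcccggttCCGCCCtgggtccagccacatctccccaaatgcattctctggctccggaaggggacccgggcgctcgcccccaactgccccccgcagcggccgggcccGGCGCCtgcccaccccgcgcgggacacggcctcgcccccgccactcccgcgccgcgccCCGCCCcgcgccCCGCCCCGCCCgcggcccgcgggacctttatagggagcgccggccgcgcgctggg
BMP6 and CHRD, which rose, held 2 GC boxes each, and CHRD also 1 GGCGCC. FSTL3, which fell, held 4 GC boxes and 1 GGCGCC, and BMPR1B, which also fell, had neither set of letters in this window. The CpG counts were 26, 27, 24 and 36 in the order shown. Windows of 49 of the 57 members were searched, and those of BMP2, BMP7, BMP1, NOG, SKI, CYR61, TAGLN and LOXL2 were not analysed here. A GC box was present in 77.6% of the member windows and in 42.6% of all 35116 windows of this length, and GGCGCC in 32.7% and 16.4%. The SMAD-binding letters CAGAC were found in 34.7% of the member windows and 38.0% of all, and a NF-κB motif in 26.5% and 9.96%. The median window held 25 CpG among the members and 11 over all windows, so the shares compare windows not matched for base composition. These letters were counted as a description without a test.

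Of the ligands more rose than fell with an SCFA. BMP2, BMP4, BMP6, TGFB2, TGFB3, INHBB and GDF11 were called up against TN in each SCFA group, 7 of 10 tested ligands, where 23.1% to 25% of all genes were called up, and GDF15 was called down in each. INHBB, with 1 count in Ctrl and none in TN, passed the filter only through its SCFA libraries. A call other than up was hardly possible for it. TGFB1 and INHBA were not called against TN, and the difference between the ligands and all genes was not tested.

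BMP2, a ligand best known from bone formation, at chr20:6767686-6780246 on the plus strand, was measured at 19.7 and 18.8 CPM (Ctrl), 17.6 and 18.7 (TN), 187 and 188 (PRTN), 132 and 132 (BUTN), 163 and 189.6 (TNPR), and 138 and 142 (TNBU). The 8 SCFA libraries stood far above the 4 others without overlap, and the propionate libraries lay above the butyrate libraries. Log2 fold changes against TN were 3.37 ± 0.09 (PRTN), 2.86 ± 0.09 (BUTN), 3.28 ± 0.09 (TNPR) and 2.95 ± 0.09 (TNBU) (SE, adjusted p from 8.91e-11 to 4e-10), or 10.3-fold, 7.28-fold, 9.69-fold and 7.72-fold.

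BMP4, a close relative of BMP2 that signals through the same receptors, lies at chr14:53949736-53958761 on the minus strand and had 20.9 and 20.2 CPM (Ctrl), 9.16 and 9.69 (TN), 59.5 and 63.3 (PRTN), 76.9 and 74.9 (BUTN), 46.6 and 51.8 (TNPR), and 57.7 and 58.4 (TNBU). TN was the lowest group and Ctrl lay between it and the SCFA groups. The change (log2) was -1.12 ± 0.10 (SE, adjusted p = 6.25e-05) in TN against Ctrl. Against TN the log2 fold change came to 2.70 ± 0.09 (PRTN), 3.01 ± 0.09 (BUTN), 2.38 ± 0.09 (TNPR) and 2.62 ± 0.09 (TNBU) (SE, adjusted p from 3.81e-10 to 1.28e-09). Against Ctrl the rise was 1.58, 1.88, 1.26 and 1.5, so BMP4 was above the untreated level with each SCFA.

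BMP6, a ligand known in the liver for the control of hepcidin, had 0.0687 and 0.0717 CPM (Ctrl), 0.0372 and 0 (TN), 5.38 and 5.23 (PRTN), 3.60 and 3.32 (BUTN), 5.98 and 6.52 (TNPR), and 5.25 and 6.01 (TNBU). It was close to 0 without an SCFA and present in each SCFA library. The 2 TN libraries held 1 count together and PRTN 358, a ratio of 291 with an exact 95% counting interval of 51.8 to 11500. For BUTN (230 counts) the ratio was 189 (33.6 to 7500), for TNPR (406 counts) 342 (61.0 to 13500) and for TNBU (331 counts) 309 (55.0 to 12200). Those intervals cover counting error only. TXNDC5, a gene on the other strand that shares exon sequence with BMP6, was lower with an SCFA, at 275 CPM in TN and 151, 154, 156 and 158 CPM in PRTN, BUTN, TNPR and TNBU.

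TGFB1 was measured at 99.2 and 98.1 CPM (Ctrl), 76.0 and 95.9 (TN), 65.2 and 70.6 (PRTN), 67.6 and 63.4 (BUTN), 63.8 and 63.7 (TNPR), and 60.2 and 63.0 (TNBU). The SCFA libraries were all lower than the Ctrl and TN libraries, and the 2 TN libraries were far apart. In log2 units the change from TN was -0.33 ± 0.09 (PRTN), -0.39 ± 0.09 (BUTN), -0.42 ± 0.09 (TNPR) and -0.47 ± 0.09 (TNBU) (SE, adjusted p from 0.000863 to 0.00803), under the fold threshold each time, but leaving out TN replicate 1 gave calls of -0.62 in TNPR and -0.65 in TNBU. HNRNPUL1, which overlaps TGFB1 on the other strand, also had lower values, 269 CPM in TN and 143 to 182 CPM in the SCFA groups, and its part in the TGFB1 values was not tested. Per kilobase of annotated exon the level in Ctrl was 30.2 CPM per kb for TGFB1, 40.8 for TGFB2 and 0.584 for TGFB3. TGFB2, the isoform that depends most on the co-receptor betaglycan, was at 241 and 252 CPM in Ctrl, 344 and 339 CPM in TN and 526 to 687 CPM in the SCFA libraries. Relative to TN it changed by 0.65 ± 0.07 (PRTN), 0.88 ± 0.07 (BUTN), 0.74 ± 0.07 (TNPR) and 0.94 ± 0.07 (TNBU) on the log2 scale (SE, adjusted p from 3.86e-07 to 8.91e-06).

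GDF15, a stress-induced ligand that acts through a receptor in the brainstem, had 19.8 and 17.1 CPM (Ctrl), 15.0 and 19.6 (TN), 7.496 and 8.82 (PRTN), 10.7 and 10.4 (BUTN), 6.87 and 3.29 (TNPR), and 6.13 and 3.95 (TNBU). All 8 SCFA libraries were lower, and those treated after TNF-α were the lowest. On the log2 scale it differed from TN by -1.08 ± 0.23 (PRTN), -0.70 ± 0.21 (BUTN), -1.83 ± 0.26 (TNPR) and -1.80 ± 0.27 (TNBU) (SE, adjusted p from 6.48e-05 to 0.0147). In BUTN the call was lost without TN replicate 2 (-0.53), without BUTN replicate 2 (-0.68) and with scaling by library size alone (-0.55). GDF11 rose from 26.8 and 29.0 CPM in TN to between 53.1 and 60.4 CPM, a log2 fold change of 1.08, 0.95, 1.07 and 0.94.

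Of the low ligands, INHBB, the subunit of activin B, had no count in TN and 26 to 32 counts in each SCFA group, at least 8.66-fold higher in PRTN, 7.12-fold in BUTN, 8.97-fold in TNPR and 9.95-fold in TNBU against a limit of 3 counts over the group. TGFB3 rose from 2.12 and 1.76 CPM in TN to between 2.88 and 3.68 CPM, which overlapped the 3.09 and 3.01 CPM of Ctrl. BMP7 had no count in Ctrl or TN and 2, 3, 3 and 5 counts in PRTN, BUTN, TNPR and TNBU, so it was at the limit of detection throughout.

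**Figure D2:**
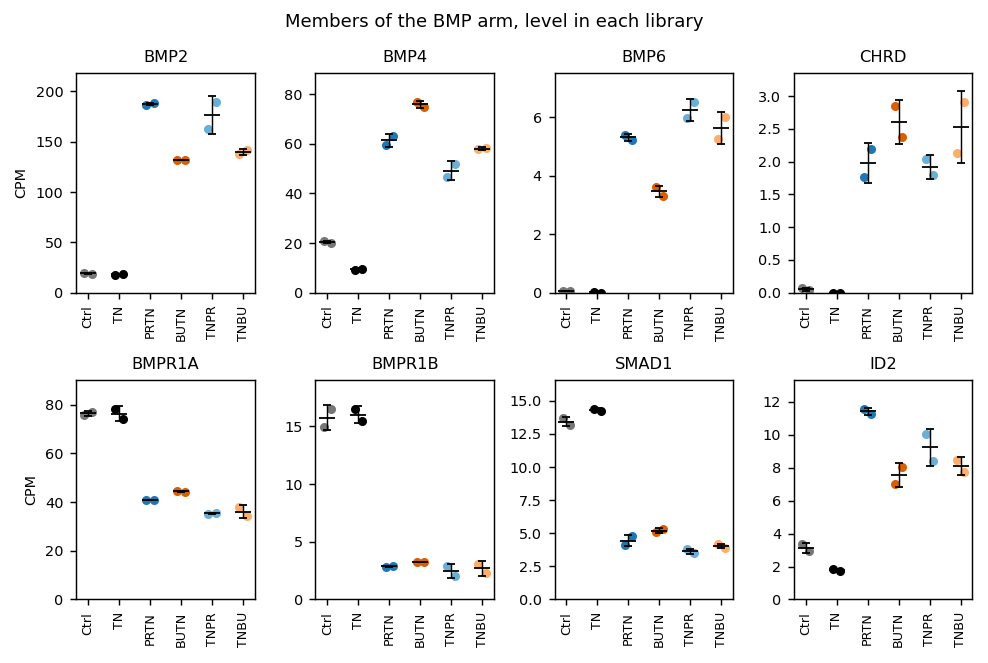
Level in CPM of 8 members of the BMP arm by group, with 1 point per library, a horizontal mark at the mean and bars for the SD of 2 libraries. BMP2, BMP4, BMP6, CHRD and ID2 are higher in each SCFA library than in Ctrl and TN, and BMPR1A, BMPR1B and SMAD1 are lower.

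The proteins that store and release these ligands went both ways. LTBP2, LTBP3 and BMP1 were called down against TN in each SCFA group and LTBP1 up, while LTBP4, TGFBI and THBS1 were not called. That made 3 down and 1 up of 7 tested, where 14.8% to 16.9% of all genes were called down and 23.1% to 25% up, and the difference was not tested.

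LTBP1, which anchors latent TGF-β in the matrix, lies at chr2:32946953-33399509 on the plus strand and had 0.103 and 0.215 CPM (Ctrl), 0.112 and 0.0718 (TN), 5.09 and 4.93 (PRTN), 5.13 and 5.69 (BUTN), 6.28 and 7.16 (TNPR), and 7.57 and 7.57 (TNBU). It was near 0 in Ctrl and TN and at 4.93 CPM or more in each SCFA library. Set against TN, the log2 fold change was 5.54 ± 0.48 (PRTN), 5.65 ± 0.48 (BUTN), 5.96 ± 0.48 (TNPR) and 6.14 ± 0.48 (TNBU) (SE, adjusted p from 3.64e-07 to 8.73e-07), from a TN level of 0.112 and 0.0718 CPM. LTBP2, an elastic fibre protein that does not bind latent TGF-β, had 85.2 and 92.4 CPM (Ctrl), 77.9 and 86.9 (TN), 21.6 and 21.0 (PRTN), 22.4 and 21.8 (BUTN), 22.5 and 22.4 (TNPR), and 24.3 and 20.0 (TNBU). The 2 sets of libraries did not overlap, and the 4 SCFA groups were close to each other. Log2 fold changes against TN were -1.95 ± 0.09 (PRTN), -1.90 ± 0.09 (BUTN), -1.87 ± 0.09 (TNPR) and -1.90 ± 0.09 (TNBU) (SE, adjusted p from 4.58e-09 to 8.32e-09), 3.66-fold to 3.87-fold lower.

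LTBP3, a TGF-β-binding member of the same family, was measured at 170.1 and 171 CPM (Ctrl), 123 and 146 (TN), 60.1 and 65.6 (PRTN), 69.7 and 64.3 (BUTN), 60.4 and 50.6 (TNPR), and 60.8 and 58.1 (TNBU). Each SCFA library was below each TN library, and the TN libraries were below Ctrl. Against TN the log2 fold change came to -1.09 ± 0.10 (PRTN), -1.0 ± 0.10 (BUTN), -1.27 ± 0.10 (TNPR) and -1.17 ± 0.10 (TNBU) (SE, adjusted p from 2.45e-07 to 2.16e-06). BMP1, despite its name a metalloproteinase that processes procollagen and cleaves chordin, had 259.9 and 251 CPM (Ctrl), 243 and 263 (TN), 119.5 and 120.4 (PRTN), 146 and 137 (BUTN), 118 and 108 (TNPR), and 120.3 and 115 (TNBU). All 8 SCFA libraries were below the 4 others. In log2 units the change from TN was -1.08 ± 0.06 (PRTN), -0.84 ± 0.06 (BUTN), -1.16 ± 0.06 (TNPR) and -1.10 ± 0.06 (TNBU) (SE, adjusted p from 1.68e-08 to 2.95e-07). TGFBI, a matrix protein induced by TGF-β, ranged from 1002 to 1565 CPM over the 12 libraries with overlapping sets, and THBS1, an activator of latent TGF-β, ranged from 243 to 491 CPM with its 8 SCFA libraries lowest.

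The receptors moved in both directions. TGFBR2 and TGFBR3 were called up against TN in each SCFA group and TGFBR1, BMPR1A, BMPR1B and ACVR2B down, 2 and 4 of 10 tested, while BMPR2, ACVR1, ACVR1B and ACVR2A were not called. The shares over all genes were 23.1% to 25% up and 14.8% to 16.9% down, and the difference was not tested.

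TGFBR2, the type II receptor that binds TGF-β first, had 63.7 and 63.0 CPM (Ctrl), 60.6 and 63.3 (TN), 125 and 127 (PRTN), 133 and 132 (BUTN), 125 and 121 (TNPR), and 139 and 117 (TNBU). The 8 SCFA libraries were all above the 4 others. Relative to TN it changed by 1.02 ± 0.08 (PRTN), 1.10 ± 0.08 (BUTN), 0.99 ± 0.08 (TNPR) and 1.04 ± 0.08 (TNBU) on the log2 scale (SE, adjusted p from 1.49e-07 to 2.76e-07). TGFBR1, the type I partner kinase, was lower with an SCFA, from 212 and 219 CPM in TN to 104 and 102 (PRTN), 111 and 112 (BUTN), 113 and 128 (TNPR) and 136 and 123 (TNBU). On the log2 scale it differed from TN by -1.06 ± 0.07 (PRTN), -0.95 ± 0.07 (BUTN), -0.84 ± 0.07 (TNPR) and -0.74 ± 0.07 (TNBU) (SE, adjusted p from 6.52e-08 to 1.43e-06). Per kilobase of annotated exon, TGFBR1 was above TGFBR2 in TN (26.95 against 9.04 CPM per kb) and below it in PRTN (12.9 against 18.4), BUTN (14.0 against 19.3), TNPR (15.1 against 17.9) and TNBU (16.2 against 18.7).

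TGFBR3, or betaglycan, a co-receptor that presents TGF-β isoforms to their receptors, was measured at 1.48 and 1.65 CPM (Ctrl), 1.60 and 1.44 (TN), 7.64 and 7.51 (PRTN), 6.88 and 5.58 (BUTN), 8.08 and 8.82 (TNPR), and 7.78 and 7.5 (TNBU). The SCFA libraries were all well above Ctrl and TN. Set against TN, the log2 fold change was 2.31 ± 0.19 (PRTN), 2.01 ± 0.19 (BUTN), 2.46 ± 0.19 (TNPR) and 2.32 ± 0.19 (TNBU) (SE, adjusted p from 2.68e-07 to 2.35e-06).

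BMPR1B, a type I BMP receptor at chr4:94757955-95158448 on the plus strand, had 15.0 and 16.5 CPM (Ctrl), 16.5 and 15.5 (TN), 2.84 and 2.89 (PRTN), 3.28 and 3.26 (BUTN), 2.87 and 2.05 (TNPR), and 3.12 and 2.26 (TNBU). Each SCFA library was far below the 4 others. Log2 fold changes against TN were -2.48 ± 0.16 (PRTN), -2.28 ± 0.15 (BUTN), -2.71 ± 0.17 (TNPR) and -2.59 ± 0.17 (TNBU) (SE, adjusted p from 4.73e-08 to 1.1e-07), or 5.56-fold, 4.87-fold, 6.52-fold and 6.02-fold lower. BMPR1A, the other BMP type I receptor, had 75.7 and 77.1 CPM (Ctrl), 78.3 and 74.0 (TN), 41.0 and 41.0 (PRTN), 44.4 and 44.3 (BUTN), 35.2 and 35.5 (TNPR), and 37.9 and 34.1 (TNBU). It was lower without overlap, and the libraries treated after TNF-α were the lowest. Against TN the log2 fold change came to -0.89 ± 0.06 (PRTN), -0.78 ± 0.06 (BUTN), -1.11 ± 0.07 (TNPR) and -1.08 ± 0.07 (TNBU) (SE, adjusted p from 3.09e-08 to 6.55e-07). ACVR2B, a type II receptor for activins, fell by 0.94, 0.81, 0.99 and 0.82 on the log2 scale, from 18.7 and 21.1 CPM in TN to 12 CPM or less. The type II receptor BMPR2 and the type I receptor ACVR1 were lower in all 8 SCFA libraries than in the 4 others, with log2 fold changes of -0.39 to -0.51 and -0.36 to -0.57, short of the fold threshold.

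The secreted antagonists moved in both directions. CHRD, FST and NOG were called up in each SCFA group against TN, FSTL1 and FSTL3 down, and GREM1 was not called, out of 6 tested. CHRD and FST passed the filter only through their SCFA libraries, so a call other than up was hardly possible for them. Over all genes 23.1% to 25% were called up and 14.8% to 16.9% down, and the difference was not tested.

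CHRD, or chordin, which binds BMPs and is cleaved by BMP1, had 0.0687 and 0.0358 CPM (Ctrl), 0 and 0 (TN), 1.77 and 2.19 (PRTN), 2.85 and 2.37 (BUTN), 2.04 and 1.79 (TNPR), and 2.14 and 2.91 (TNBU). No count was found in either TN library, and each SCFA library was at 1.77 CPM or more. Against the limit of 3 counts over the TN group, CHRD was at least 36.0-fold higher in PRTN, 47.4-fold in BUTN, 35.1-fold in TNPR and 46.2-fold in TNBU. THPO, which overlaps CHRD on the other strand, was also near 0 in Ctrl and TN and at 0.148, 0.433, 0.216 and 0.357 CPM with an SCFA, and its part in the CHRD values was not tested. FST, or follistatin, which traps activins, had no count in Ctrl or TN and 0.608 to 0.970 CPM in the SCFA libraries, at least 11.6-fold, 15.6-fold, 16.0-fold and 16.2-fold higher. NOG, or noggin, a BMP trap, rose from 0.372 and 0.108 CPM in TN to between 0.547 and 1.06 CPM.

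FSTL3, a follistatin relative that binds activins, had 141 and 143 CPM (Ctrl), 109.6 and 130.2 (TN), 50.1 and 49.8 (PRTN), 55.9 and 58.7 (BUTN), 50.9 and 50.8 (TNPR), and 53.6 and 53.0 (TNBU). The SCFA libraries were all below Ctrl and TN. In log2 units the change from TN was -1.26 ± 0.08 (PRTN), -1.06 ± 0.08 (BUTN), -1.23 ± 0.08 (TNPR) and -1.16 ± 0.08 (TNBU) (SE, adjusted p from 3.66e-08 to 1.87e-07). FSTL1, a secreted glycoprotein distantly related to follistatin, had 196 and 209.9 CPM (Ctrl), 231 and 235 (TN), 129 and 124 (PRTN), 134 and 133 (BUTN), 117 and 163 (TNPR), and 133 and 151 (TNBU). It was highest in TN and lower in each SCFA library, and the 2 TNPR libraries were far apart. Relative to TN it changed by -0.88 ± 0.12 (PRTN), -0.80 ± 0.12 (BUTN), -0.76 ± 0.12 (TNPR) and -0.72 ± 0.12 (TNBU) on the log2 scale (SE, adjusted p from 2.92e-05 to 0.000169). In TNPR the call was lost without replicate 1 (-0.56) and in TNBU with scaling by library size alone (-0.52). GREM1, or gremlin, a BMP trap linked to kidney fibrosis, was higher in all 8 SCFA libraries than in the 4 others, at 389 to 538 CPM against 261 to 328 CPM, but its changes of 0.43, 0.29, 0.51 and 0.40 stayed under the threshold.

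**Figure D3:**
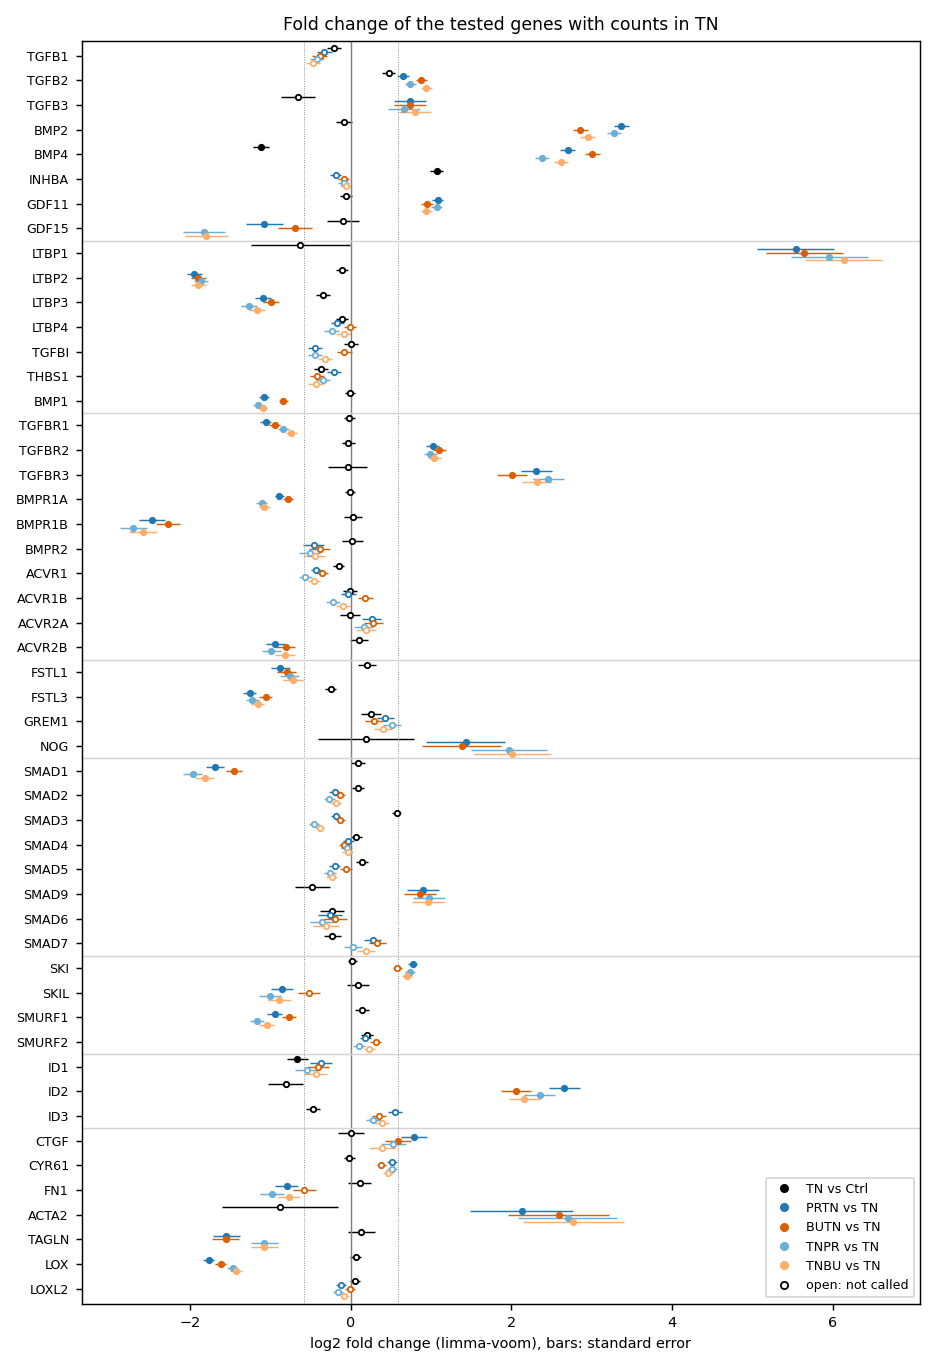
Log2 fold change (x axis, points) with its standard error (bars) for the tested members that had more than 1 count in TN, in TN against Ctrl and in the 4 SCFA groups against TN, with filled points where called and dotted lines at the fold threshold. LTBP1 has the largest rise of the genes drawn, BMPR1B the largest fall, and the coloured points of a gene mostly lie close together.

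Most SMAD genes were not called. SMAD1 was called down and SMAD9 up in each SCFA group against TN, and SMAD2, SMAD3, SMAD4, SMAD5, SMAD6 and SMAD7 were not called, out of 8 tested. That was 25% of the SMAD genes called, where 37.9% to 41.8% of all genes were called, and the difference was not tested.

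SMAD1, a mediator of BMP signals, had 13.7 and 13.2 CPM (Ctrl), 14.4 and 14.2 (TN), 4.14 and 4.76 (PRTN), 5.07 and 5.34 (BUTN), 3.79 and 3.52 (TNPR), and 4.16 and 3.92 (TNBU). All 8 SCFA libraries were below the 4 others. On the log2 scale it differed from TN by -1.69 ± 0.11 (PRTN), -1.46 ± 0.10 (BUTN), -1.97 ± 0.12 (TNPR) and -1.82 ± 0.12 (TNBU) (SE, adjusted p from 2.88e-08 to 1.94e-07). SMAD9, another mediator of that arm, had 2.44 and 2.04 CPM (Ctrl), 1.79 and 1.44 (TN), 2.86 and 3.13 (PRTN), 2.66 and 3.21 (BUTN), 3.35 and 2.97 (TNPR), and 3.15 and 3.09 (TNBU). Its SCFA libraries were above TN and also above Ctrl, though the nearest Ctrl library, at 2.44 CPM, was close to the lowest SCFA library, at 2.66 CPM. Set against TN, the log2 fold change was 0.90 ± 0.20 (PRTN), 0.86 ± 0.20 (BUTN), 0.97 ± 0.20 (TNPR) and 0.96 ± 0.20 (TNBU) (SE, adjusted p from 0.00114 to 0.00299). SMAD5, the other mediator of BMP signals, ranged from 46.0 to 57.5 CPM with overlapping sets. The common partner SMAD4 ranged from 68.6 to 77.1 CPM with changes of -0.03, -0.08, -0.05 and -0.04. Of the inhibitory SMADs, SMAD7 changed by 0.27, 0.33, 0.03 and 0.19 and SMAD6 by -0.26, -0.20, -0.36 and -0.31.

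Among the 4 intracellular brakes, all tested, SKI rose, SKIL and SMURF1 fell, and SMURF2 was not called. Of all genes 23.1% to 25% were called up and 14.8% to 16.9% down, and the difference was not tested. SKI, which blocks SMAD-driven transcription, had 77.9 and 80.2 CPM (Ctrl), 78.1 and 82.6 (TN), 136 and 138 (PRTN), 122 and 119 (BUTN), 130.5 and 139 (TNPR), and 126 and 135 (TNBU). The 8 SCFA libraries were above the 4 others. Log2 fold changes against TN were 0.77 ± 0.06 (PRTN), 0.58 ± 0.06 (BUTN), 0.74 ± 0.06 (TNPR) and 0.70 ± 0.06 (TNBU) (SE, adjusted p from 3.78e-07 to 5.25e-06), called in each group other than BUTN, where the fold was just short of the threshold and where DESeq2 and 5 other alternatives gave a call, 0.60 in DESeq2. SKIL, or SnoN, its relative and a target of TGF-β itself, had 92.6 and 89.3 CPM (Ctrl), 103 and 90.9 (TN), 53.4 and 53.2 (PRTN), 67.5 and 66.9 (BUTN), 53.4 and 43.2 (TNPR), and 63.5 and 42.8 (TNBU). Lower levels were seen in all 8 SCFA libraries, and the 2 TNBU libraries were far apart. Against TN the log2 fold change came to -0.86 ± 0.14 (PRTN), -0.52 ± 0.14 (BUTN), -1.01 ± 0.14 (TNPR) and -0.89 ± 0.14 (TNBU) (SE, adjusted p from 5.68e-05 to 0.00651), called in each group other than BUTN, where a call appeared without TN replicate 2 (-0.63). SMURF1, a ubiquitin ligase for SMADs and receptors, had 73.5 and 74.9 CPM (Ctrl), 83.5 and 80.02 (TN), 43.4 and 41.0 (PRTN), 46.7 and 48.8 (BUTN), 38.8 and 33.7 (TNPR), and 43.5 and 35.6 (TNBU). No SCFA library reached the level of Ctrl or TN. In log2 units the change from TN was -0.95 ± 0.09 (PRTN), -0.77 ± 0.09 (BUTN), -1.17 ± 0.09 (TNPR) and -1.05 ± 0.09 (TNBU) (SE, adjusted p from 2.91e-07 to 1.08e-05). TRRAP, which overlaps SMURF1 on the other strand, was also lower, at 125 CPM in TN and 71.1 to 85.9 CPM with an SCFA, and its part in the SMURF1 values was not tested. SMURF2, the relative of SMURF1, changed by 0.18, 0.31, 0.10 and 0.23 and was not called.

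The ID genes are direct targets of BMP signalling, and of the 3 tested only ID2 was called against TN. It was called up, as were 23.1% to 25% of all genes. ID2 had 3.36 and 2.94 CPM (Ctrl), 1.82 and 1.76 (TN), 11.6 and 11.2 (PRTN), 7.04 and 8.06 (BUTN), 10.0 and 8.41 (TNPR), and 8.48 and 7.73 (TNBU). TN was the lowest group, Ctrl lay just above it, and each SCFA library was above both. Relative to TN it changed by 2.66 ± 0.19 (PRTN), 2.06 ± 0.19 (BUTN), 2.35 ± 0.19 (TNPR) and 2.16 ± 0.19 (TNBU) on the log2 scale (SE, adjusted p from 1.22e-07 to 1.65e-06). In TN against Ctrl ID2 changed by -0.81 ± 0.22 (adjusted p = 0.0638), a call in edgeR (adjusted p = 0.019) and DESeq2 (adjusted p = 0.0225) and in limma-voom with library size alone (adjusted p = 0.0443) or the literal geometric mean as filter (adjusted p = 0.044). ID3 was higher than in TN by 0.55, 0.35, 0.28 and 0.39 without a call, and its SCFA levels of 27.7 to 36.5 CPM overlapped the 33.4 and 32.5 CPM of Ctrl. ID4 had 0 or 1 count in each library.

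The fibrosis targets went both ways. TAGLN and LOX were called down and ACTA2 up against TN in each SCFA group, FN1 down in PRTN, TNPR and TNBU, and CTGF up in PRTN and BUTN, while CYR61 and LOXL2 were not called, out of 7 tested. Among all genes 23.1% to 25% were called up and 14.8% to 16.9% down, and the difference was not tested.

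FN1, or fibronectin, a main component of the scar matrix, had 12000 and 14110 CPM (Ctrl), 13460 and 14580 (TN), 8158 and 7892 (PRTN), 9522 and 9260 (BUTN), 7916 and 6400 (TNPR), and 10010 and 6722 (TNBU). Each SCFA library was below the 4 others, and in TNBU the 2 libraries were far apart. On the log2 scale it differed from TN by -0.80 ± 0.14 (PRTN), -0.58 ± 0.14 (BUTN), -0.98 ± 0.15 (TNPR) and -0.77 ± 0.14 (TNBU) (SE, adjusted p from 8.42e-05 to 0.0043). In TNBU the call was lost without replicate 2 (-0.49) and with scaling by library size alone (-0.58), and in BUTN a call appeared without TN replicate 1 (-0.66) or BUTN replicate 1 (-0.63) and with no filter or the default filter of edgeR (-0.61 in each). LOX, an enzyme that crosslinks collagen, had 141 and 145 CPM (Ctrl), 150.5 and 147 (TN), 42.7 and 44.3 (PRTN), 48.9 and 47.9 (BUTN), 49.6 and 58.0 (TNPR), and 54.6 and 55.4 (TNBU). The libraries with and without an SCFA were well separated. Set against TN, the log2 fold change was -1.77 ± 0.07 (PRTN), -1.62 ± 0.07 (BUTN), -1.47 ± 0.07 (TNPR) and -1.43 ± 0.07 (TNBU) (SE, adjusted p from 1.6e-09 to 8.11e-09). LOXL2, an enzyme of the same family, ranged from 716 to 883 CPM with overlapping sets and log2 fold changes of -0.12, -0.01, -0.16 and -0.08.

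ACTA2, the smooth muscle actin that marks myofibroblasts, had 0.206 and 0.358 CPM (Ctrl), 0.0744 and 0.242 (TN), 0.648 and 0.700 (PRTN), 0.770 and 1.10 (BUTN), 0.825 and 1.24 (TNPR), and 0.765 and 1.42 (TNBU). The levels were very low in all groups, with each SCFA library above the 4 others. Log2 fold changes against TN were 2.13 ± 0.64 (PRTN), 2.59 ± 0.63 (BUTN), 2.70 ± 0.62 (TNPR) and 2.77 ± 0.63 (TNBU) (SE, adjusted p from 0.00217 to 0.0126), and without TN replicate 1 the calls in PRTN (adjusted p = 0.131) and BUTN (adjusted p = 0.0502) were lost. FAS, which overlaps ACTA2 on the other strand, was higher too, at 4.33 CPM in TN and 5.45 to 8.06 CPM with an SCFA, and its part in the ACTA2 values was not tested. TAGLN, or SM22, another smooth muscle and myofibroblast gene, had 341 and 366 CPM (Ctrl), 394 and 382 (TN), 132 and 134 (PRTN), 133 and 130.5 (BUTN), 149.6 and 227 (TNPR), and 149.9 and 224 (TNBU). Although all SCFA libraries were below Ctrl and TN, replicate 2 of TNPR and of TNBU stood well above the other 6. Against TN the log2 fold change came to -1.55 ± 0.17 (PRTN), -1.56 ± 0.17 (BUTN), -1.08 ± 0.17 (TNPR) and -1.08 ± 0.17 (TNBU) (SE, adjusted p from 8.13e-06 to 0.000157). CTGF, a matricellular protein induced by TGF-β and by YAP, was at 827 to 982 CPM in Ctrl and TN and at 1029 to 1618 CPM with an SCFA. Its log2 fold changes were 0.79, 0.59, 0.53 and 0.39. CYR61, its relative, changed by 0.51, 0.38, 0.51 and 0.46 and was higher in all 8 SCFA libraries than in the 4 others.

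Markers of fibroblasts and pericytes, 9 genes of which 6 reached 1 CPM in any library, summed to 148 and 153 CPM (Ctrl), 143 and 143 (TN), 258 and 262 (PRTN), 271 and 282 (BUTN), 230 and 241 (TNPR) and 228 and 239 CPM (TNBU). COL1A1, among these markers and also a fibrosis readout, averaged 41.4 CPM in TN. It averaged 178, 196, 163 and 161 CPM in PRTN, BUTN, TNPR and TNBU, a larger rise than that of the sum. Of the 9, 5, 6, 5 and 6 rose and 3, 3, 3 and 2 fell against TN in PRTN, BUTN, TNPR and TNBU. For all 4 marker lists, the shares over all genes were 23.1% to 25% up and 14.8% to 16.9% down. PDGFRA and COL1A2 were at 0 in TN. Endothelial markers (5 genes) summed to 0.287 CPM at most without an SCFA and to 2.29 to 3.87 CPM with one, and leukocyte markers (6 genes) to 1.43 CPM at most and to 3.05 to 5.21 CPM. Of the 14 markers of kidney epithelium 8, 8, 7 and 8 rose and 4 fell in each SCFA group, and their sum was 1820 and 1920 CPM in TN and 1950 to 2520 CPM with an SCFA. The part of these 4 marker lists in the member results was not tested.

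The SCFA groups were also compared with Ctrl, by 4 contrasts that share the 2 Ctrl libraries. PRTN had 17 members up and 17 down, BUTN 17 up and 17 down, TNPR 17 up and 20 down, and TNBU 17 up and 19 down, of 55 tested, where 39.4%, 36.9%, 40.4% and 40% of all genes were called (22.6%, 22%, 23.6% and 23.6% up, 16.9%, 14.9%, 16.8% and 16.5% down). TGFB1 was called down against Ctrl in BUTN (-0.59 ± 0.09), TNPR (-0.63 ± 0.09) and TNBU (-0.68 ± 0.09), and stood at -0.54 ± 0.09 in PRTN. THBS1 was called down in BUTN (-0.79), TNPR (-0.72) and TNBU (-0.81) and stood at -0.58 in PRTN.

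Propionate at 15 mM and butyrate at 3 mM gave close values for most members. In PRTN against BUTN 1 member, ID2, was called, higher with propionate (0.60 ± 0.11, adjusted p = 0.0416), where 0.168% of all genes were called (0.0411% up, 0.127% down). An unadjusted p under 0.05 was found for 14 of 55 tested members and for 3418 of 24342 genes. The ID2 call was not made by edgeR or DESeq2, or when any of the 4 libraries was left out. BMP2 was higher with propionate by 0.51 (95% interval 0.36 to 0.65, adjusted p = 0.0159), below the fold threshold, and BMP4 differed by -0.31 (-0.45 to -0.17, adjusted p = 0.0612). In TNPR against TNBU 0 members were called by limma-voom, edgeR or DESeq2, where 0.00822% of all genes were called (0% up, 0.00822% down). An unadjusted p under 0.05 was found there for 2096 of 24342 genes and for 3 of 55 tested members. Those 3 were BMP2 at 0.33 (0.18 to 0.48), BMP4 at -0.24 (-0.39 to -0.09) and TGFB2 at -0.19 (-0.35 to -0.04).

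Few members differed past the threshold between the groups treated before and after TNF-α. The order of treatment and the time since TNF-α cannot be told apart in these contrasts. In TNPR against PRTN 0 members were called by limma-voom, edgeR or DESeq2, where 0.16% of all genes were called (0.0534% up, 0.107% down). An unadjusted p under 0.05 was found for 13 of 55 tested members and for 2729 of 24342 genes. In TNBU against BUTN BMP6 was called up (0.70 ± 0.14, adjusted p = 0.0477), where 0.267% of all genes were called (0.0945% up, 0.173% down). An unadjusted p under 0.05 was found for 17 of 55 tested members and for 3515 of 24342 genes. The BMP6 call was not made by edgeR or DESeq2, or without BUTN replicate 1, BUTN replicate 2 or TNBU replicate 2. The level of BMP4 was lower when the SCFA came after TNF-α, at -0.32 (95% interval -0.47 to -0.18) with propionate and -0.39 (-0.53 to -0.24) with butyrate, as was GDF15 at -0.75 (-1.37 to -0.14) and -1.10 (-1.71 to -0.50), none of them called. LTBP1 was higher by 0.42 (0.14 to 0.69) and 0.48 (0.21 to 0.75), also without a call. The difference between the SCFAs in this after-to-before difference gave 0 member calls in limma-voom, edgeR and DESeq2, where 0% of all genes were called by limma-voom. An unadjusted p under 0.05 was found for 3 of 55 tested members and for 935 of 24342 genes.

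Of 106 other genes of the pathway 95 were tested. In TN against Ctrl 1 rose and 2 fell, LRRC32 (-0.74 ± 0.13), which displays latent TGF-β on the cell surface, and VASN (-0.90 ± 0.12), which traps TGF-β. Of all genes 0.764% rose and 0.534% fell in that contrast. Against TN, PRTN had 31 called up and 16 down, BUTN 35 up and 11 down, TNPR 33 up and 19 down, and TNBU 35 up and 17 down. As shares of the 95 these were 32.6%, 36.8%, 34.7% and 36.8% up and 16.8%, 11.6%, 20% and 17.9% down, beside 23.1% to 25% of all genes up and 14.8% to 16.9% down, so the falls were close to the share over all genes. The 15 other ligands tested had 7, 8, 8 and 8 rises and 0, 0, 1 and 0 falls, and the 9 other receptors and co-receptors 5, 7, 6 and 5 rises and no falls. Some of these genes were at or near 0 in TN, such as LEFTY1 and HFE2 at 0 and AMHR2 at 0.0186 CPM. For such genes a fall was hardly possible. The 21 other intracellular SMAD regulators had no rises and 4, 4, 6 and 6 falls, 19% to 28.6% of them. None of these shares was tested against that of all genes.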

How the data were processed

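RNA of HK2 cells was measured in 12 libraries, 2 per group. From stranded mRNA libraries the authors aligned reads to GRCh38 with STAR (version 2.6.1a in the submitters' processing notes) and deposited the expected counts that RSEM estimated for each gene of GENCODE release 26. No scaling, filter or pooling of replicates was applied to these estimated counts, and the strand setting of RSEM is not given in the sources used here. RSEM divides reads between similar genes, and 26 members had a count that is not whole. For 27 members an exon overlaps a gene on the other strand in GENCODE release 44.

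Each library was grouped by its own label. The general treatment text of the labels names thapsigargin and JQ1, and the treatments used here are those of the library labels and the paper's methods. Counts were tested with limma 3.58.1 in R 4.3.3. A gene entered the fit if its geometric mean, computed with 1 added to each count and then subtracted, reached 1, and 33936 of 58278 genes were removed. Libraries were scaled with TMM factors of edgeR 4.0.16 (0.913 to 1.06). The 12 libraries were fitted together with voom weights and 1 mean per group, and p-values from the moderated statistics were adjusted by Benjamini-Hochberg over 24342 genes. With 2 libraries a group, log2 fold changes against TN had a median standard error of 0.207 to 0.212. Genes at 0 in TN were given as a bound against 3 counts over the group, and genes with 1 count as a ratio with an exact interval. Both cover counting error only.

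The text gives every library for members called in TN against Ctrl, for TGFB1, ACTA2 and FN1, and for up to 4 members per role with the largest mean change from TN, among those called at least once and with a mean of at least 1 CPM in the higher group, 28 in all. Other pathway genes are named by the 2 largest rises and falls per list, among genes called in all 4 contrasts and reaching the same level, which left out lower genes with larger changes (LEFTY1, BMP5, ACVR1C). A few genes outside the members are not reported here. The members, lists and tests were chosen with earlier results of these data known. The alternatives were edgeR and DESeq2 1.42.0 on rounded counts, 2 other scalings, 3 other filters, fits of the groups compared, the replicate number as a block, and leaving out each replicate. The scripts were checked on simulated data.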

Additional observations from a re-analysis of the deposited data

Results flagged for a closer look

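A pair of results differed between groups under the same contrast. ID2 was higher in PRTN than in BUTN by a log2 fold change of 0.60, with 11.6 and 11.2 CPM against 7.04 and 8.06 CPM, so that the libraries did not overlap. The doses of the compounds differed. The call was not made by edgeR, by DESeq2, with the replicate block or when any of the 4 libraries was left out.

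BMP6 was higher in TNBU than in BUTN by a log2 fold change of 0.70, with 5.25 and 6.01 CPM against 3.60 and 3.32 CPM. It too lost its call in edgeR, in DESeq2, with the replicate block and without BUTN replicate 1, BUTN replicate 2 or TNBU replicate 2. With 2 libraries per group no library could be tested as standing apart from its group.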

How the results depend on the processing

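Under the alternatives 327 counts of members called stayed within 1.5 times the reported count and 27 did not, and of the values of single genes 1755 kept direction and call, 19 gained a call, 13 lost one and 23 changed sign. None of the sign changes was in a called value. In TN against Ctrl the members called down were 1 with only the groups compared and 1 to 2 when a replicate was left out, and those called up 1 to 2 (2 without Ctrl replicate 1). In PRTN against BUTN the members called up were 0 in edgeR, DESeq2, with no filter, with the literal geometric mean, with the replicate block and without any 1 replicate, and 2 with only the groups compared. In TNBU against BUTN they were 0 in edgeR, DESeq2, with no filter, the literal geometric mean, only the groups compared and the replicate block, and 0 to 2 when a replicate was left out (2 without TNBU replicate 1). Those called down were 1 in DESeq2 and 0 to 2 when a replicate was left out. The cause was not tested.

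Sign changes with library size alone were INHBA against TN (0.06 in BUTN, 0.08 in TNPR, 0.14 in TNBU) and, in TN against Ctrl, BMPR1B (-0.03) and SKI (-0.03). The others were in TN against Ctrl: BMP1 0.00 with only the groups compared, BMPR1A 0.00 in DESeq2 and with relative log expression factors, 0.01 with the literal mean and 0.01 with only the groups compared, and, over the fits with a replicate left out, GDF15 (-0.30 to 0.09), BMP1 (-0.07 to 0.04), TGFBR3 (-0.12 to 0.04), BMPR1A (-0.05 to 0.04), BMPR1B (-0.04 to 0.09), SKI (-0.02 to 0.06), SKIL (-0.00 to 0.17) and FN1 (-0.01 to 0.22).

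Same-numbered replicates paired little over the genes tested. The deviations from the group means correlated by -0.0791 to 0.240 over 15 pairs of groups, and 1 was over 0.1. In both TNPR and TNBU, FN1 was lower in replicate 2 (7916 to 6400 and 10010 to 6722 CPM) and TAGLN higher (149.6 to 227 and 149.9 to 224 CPM). Several further members also moved the same way in both groups, such as CTGF and SKIL (lower) and FSTL1 and GREM1 (higher). Others, such as TGFB2 and LTBP4, moved in opposite ways in these 2 groups. A replicate effect limited to them was not tested. With the replicate block the members called against TN were 18 up and 16 down (PRTN), 17 up and 14 down (BUTN), 17 up and 16 down (TNPR) and 17 up and 16 down (TNBU). Depth limits the lowest genes, since 3 counts over TN correspond to 0.0548 CPM.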

Other observations

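Other genes of the pathway were named per list by their mean change from TN. INHA, the inhibin subunit, had 0.186 and 0.251 CPM in TN and 1.16 to 2.02 CPM with an SCFA, and BMP8A, a BMP ligand, 0.339 and 0.517 CPM in TN and 1.69 to 2.69 CPM. RGMA, a BMP co-receptor also known from axon guidance, had 0.0744 and 0.0718 CPM in TN and 1.36 to 2.32 CPM with an SCFA. ACVRL1, or ALK1, a type I receptor best known from endothelium, had 0.261 and 0.215 CPM in TN and 1.61 to 2.99 CPM. FSTL5, a follistatin relative, had 0.112 and 0.108 CPM in TN and 2.44 to 6.27 CPM with an SCFA. TGFB1I1, or Hic-5, a focal adhesion protein induced by TGF-β, fell from 79.5 and 83.3 CPM in TN to between 11.8 and 16.3 CPM, and the SMAD co-repressor TGIF1 from 83.3 and 82.7 CPM to between 35.4 and 40.8 CPM.

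Among other fibrosis readouts the proteoglycan VCAN fell from 473 and 461 CPM in TN to between 86.2 and 126 CPM, and the crosslinking enzyme LOXL1 from 122 and 145 CPM to between 27.5 and 43.0 CPM. COL6A3, a collagen VI chain, had 0.0744 and 0.0359 CPM in TN and 1.72 to 4.41 CPM with an SCFA. The gelatinase MMP2 was at 0 in both TN libraries and at 0.888 to 1.79 CPM with an SCFA. Each of these genes was called in all 4 contrasts, as the rule for naming them required.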
